A study of Mus musculus with 12 samples.

Results

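Keratins are the intermediate filament proteins of epithelial cells, and 10 keratin genes were examined in mouse intestinal tumor organoids with and without induced SMAD4. The genes were listed by name. They were Krt7, Krt8, Krt18, Krt19, Krt20 and Krt23, which belong to simple epithelium, and Krt5, Krt6a, Krt14 and Krt17, which belong to stratified epithelium. They are 10 of the 24906 genes listed in each expression table and 10 of the 55 keratin genes found there. Mean levels of the 4 abundant simple keratins Krt7, Krt8, Krt18 and Krt19 were compared in BME, a basement membrane gel. They were 1.85 to 2.18 times as high with SMAD4 induced as in controls, and the samples of Krt7 overlapped. Within a line, Krt7 was 1.35 and 2.35 times as high. On plastic the mean of Krt19 was 0.530 times that of untreated organoids, while the means of Krt7, Krt8 and Krt18 were 0.832, 1.13 and 1.36 times as high and their samples overlapped. None of these differences passed a test adjusted over all genes.

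A keratin filament is built from an obligate pair, in which a type I chain binds a type II chain, and an unpaired chain is degraded. Simple epithelium such as the intestinal lining uses Krt8 with Krt18, Krt19 and, in mature cells, Krt20, while Krt5 with Krt14 marks the basal layer of stratified epithelium and Krt6a and Krt17 are known from hair follicles and wounded or stressed skin. Keratin filaments are anchored to neighbouring cells at desmosomes and to the matrix at hemidesmosomes.

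Tumor organoids came from macroscopic tumors of Smad4f/f; BRAFV600E/+;Villin-CreERT2 mice, in which the Villin promoter restricts the tamoxifen-activated Cre, and so the loss of Smad4, to intestinal epithelium. All 12 libraries carry the label genotype Smad4KO;BRAFV600E/+;pINDUCER-SMAD4 and the tissue small intestine, so by label controls and induced organoids share the Smad4 deletion, the activated BRAF allele and the lentiviral construct, which expresses SMAD4 when doxycycline (dox) is given. In basement membrane extract (BME), a gel that supports 3D growth, there were 3 untreated libraries of lines 682, 700 and 889, 2 dox libraries of lines 700 and 889, and 1 library of line 682 labelled 4ug/mL Doxycycline (Mock). On tissue culture plastic, lines 560, 700 and 889 each gave 1 untreated and 1 dox library. Dox was given at 4 µg/mL for 48 h. The mock library was counted as a control, which makes 2 dox and 4 control libraries in BME. The study's methods mention a mock plasmid, and the labels do not state whether the mock library, which is titled as a dox library, carried it in place of pINDUCER-SMAD4. Per the study's methods, mice received tamoxifen as young adults and transduced lines were selected with puromycin. No label states that the lines came from separate animals, so that p-values measure only the spread between these libraries.

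Levels are FPKM (fragments per kilobase, scaled across the libraries of a table), which can be compared between genes because they are per length. The BME and plastic tables were normalized separately, so levels are compared within a table, and between environments the dox changes alone are set against each other. Rebuilt depth ran from 14526902 to 16345965 reads for the BME libraries and from 16998799 to 21040355 reads for those on plastic. Smad4 was higher in each dox library than in the untreated library of its line, at 17.2 and 27.3 FPKM against 6.53 and 6.23 in BME and at 73.6, 18.1 and 48.9 FPKM against 1.54, 2.99 and 4.76 on plastic, while the mock library had 10.3 against 8.88. Of the 8 intestinal epithelium markers, 8 had a mean of at least 0.5 FPKM in BME and 7 on plastic. Most listed markers of the labelled tissue were thus present. Cdx1 fell short on plastic, at a mean of 0.0446 FPKM. In BME it was at 4.16 ± 5.83 FPKM (SD) with dox and 2.52 ± 5.03 FPKM (SD) in controls, so its pass there rested on few libraries. The summed level of the 8 markers ran from 2349 to 3497 FPKM in BME and from 1685 to 3194 FPKM on plastic. Fibroblast markers summed to at most 5.83 FPKM in BME and 0.417 FPKM on plastic, where Lum and Thy1 were listed at 0 in all libraries. Immune markers summed to 6.90 to 12.2 FPKM with dox and 7.43 to 18.3 FPKM in controls in BME, and to 4.37 to 39.5 FPKM with dox and 3.69 to 16.1 FPKM untreated on plastic, where Cd3e was listed at 0. Cd68 made up most of the immune sum in both environments. The plastic pair of line 889 had more Cd68 with dox (38.7 against 2.70 FPKM), whereas lines 560 and 700 had less. Ptprc, from the same list, averaged 0.0141 FPKM (dox) and 0.0181 FPKM (untreated) on plastic. Smooth muscle markers stayed at or under 2.27 FPKM and endothelial markers at or under 4.14 FPKM in every library.

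The keratin genes lie in 2 clusters, given here on build NCBIM37 (mm9), the build named in the submitters' processing notes. On chromosome 11 are the type I genes Krt20 (chr11:99289717-99299464), Krt23 (chr11:99339288-99354451), Krt19 (chr11:100002124-100009979), Krt14 (chr11:100064476-100068862) and Krt17 (chr11:100117531-100122343), all on the minus strand. On chromosome 15 are the type II genes Krt7 (chr15:101241474-101260744, plus strand), Krt6a (chr15:101520363-101524738, minus), Krt5 (chr15:101537501-101543322, minus) and Krt8 (chr15:101827142-101834773, minus). Krt18 (chr15:101858647-101862457, plus) is the type I gene that sits among the type II genes, with 23873 bases between it and Krt8.

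RefSeq promoters of build GRCm38.p6 were matched for 7 of the 10 keratins (not for Krt19, Krt6a and Krt17). Promoters of the matched genes with the highest levels (Krt8, Krt7 and Krt18), and of Krt20, the keratin that was higher with dox in all plastic pairs, are shown as the 250 bases before the start site, 5′ to 3′ on the strand of the gene. Capitals mark CAGAC or its reverse complement GTCTG, the short sequence that SMAD proteins bind. The windows are chr15:102004343-102004592 (minus strand) for Krt8, chr15:101412153-101412402 (plus) for Krt7, chr15:102027966-102028215 (plus) for Krt18 and chr11:99438154-99438403 (minus) for Krt20.
Krt8 promoter: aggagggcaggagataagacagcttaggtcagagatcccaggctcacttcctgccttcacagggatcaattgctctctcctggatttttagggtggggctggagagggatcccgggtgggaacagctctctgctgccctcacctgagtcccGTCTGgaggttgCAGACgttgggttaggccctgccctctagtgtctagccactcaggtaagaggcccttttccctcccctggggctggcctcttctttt
Krt7 promoter: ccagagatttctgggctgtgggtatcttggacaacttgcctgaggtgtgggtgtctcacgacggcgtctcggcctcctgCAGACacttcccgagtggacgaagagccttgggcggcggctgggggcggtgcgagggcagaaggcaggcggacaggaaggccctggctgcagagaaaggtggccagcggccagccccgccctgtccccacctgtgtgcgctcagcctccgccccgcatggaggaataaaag
Krt18 promoter: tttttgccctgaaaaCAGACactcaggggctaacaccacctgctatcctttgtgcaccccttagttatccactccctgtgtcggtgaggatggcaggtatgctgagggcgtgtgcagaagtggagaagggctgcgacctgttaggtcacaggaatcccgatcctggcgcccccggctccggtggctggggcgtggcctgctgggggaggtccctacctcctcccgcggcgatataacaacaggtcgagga
Krt20 promoter: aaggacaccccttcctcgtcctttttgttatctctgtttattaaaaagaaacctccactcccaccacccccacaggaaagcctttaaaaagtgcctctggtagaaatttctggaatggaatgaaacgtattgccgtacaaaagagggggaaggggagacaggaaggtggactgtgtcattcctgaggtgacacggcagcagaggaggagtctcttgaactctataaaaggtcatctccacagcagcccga

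Read on either strand, CAGAC was present in 5 of the 7 matched keratin promoters, which were those of Krt7, Krt8, Krt18, Krt23 and Krt14, and in 42.2% of all 32851 RefSeq mouse promoter windows of the same length. The Krt8 window held 2 matches, at bases -99 to -95 and -87 to -83 counted from the start site, the Krt7 window 1 at -171 to -167 and the Krt18 window 1 at -235 to -231. The longer GC-rich SMAD element GGCGCC was found in 1 of the 7, at -86 to -81 of Krt18, against 9.59% of all promoters. The AP-1 site TGANTCA was in 0 of the 7 against 6.75% of all promoters, and the TATA box TATAAA was in 1 of the 7, at -29 to -24 of Krt20, against 12.4%. The motifs do not overlap one another in these windows. A match describes the letters of the window only.

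Keratin RNA in these organoids was simple-epithelial. Krt7, Krt8, Krt18 and Krt19 together made up 96.2% to 97.9% of all keratin FPKM in BME libraries and 97.1% to 98.6% on plastic, and the 10 keratins together made up 98.4% to 99.5% and 98.6% to 99.2%. Of the 55 keratin genes, 14 had a mean of at least 0.5 FPKM in each table. Summed over type I and type II genes, the type I chains were ahead of their partners by a ratio of 1.18 to 1.64 in BME and 1.10 to 1.43 on plastic. In BME the ratio was 1.18 and 1.38 with dox, below the 1.39 to 1.64 of all controls, and on plastic the arms overlapped. Krt18 ranked between 3rd and 15th among all genes in plastic libraries. All keratins together were 1.27% and 1.63% of the summed FPKM in the dox libraries in BME and 0.597% to 0.865% in the controls, so the dox libraries were above all controls. On plastic the share was 2.35% to 3.23% with dox and 2.47% to 3.14% untreated, and the arms overlapped. In bulk RNA, more cells of a type and more RNA per cell cannot be told apart.

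**Figure D1:**
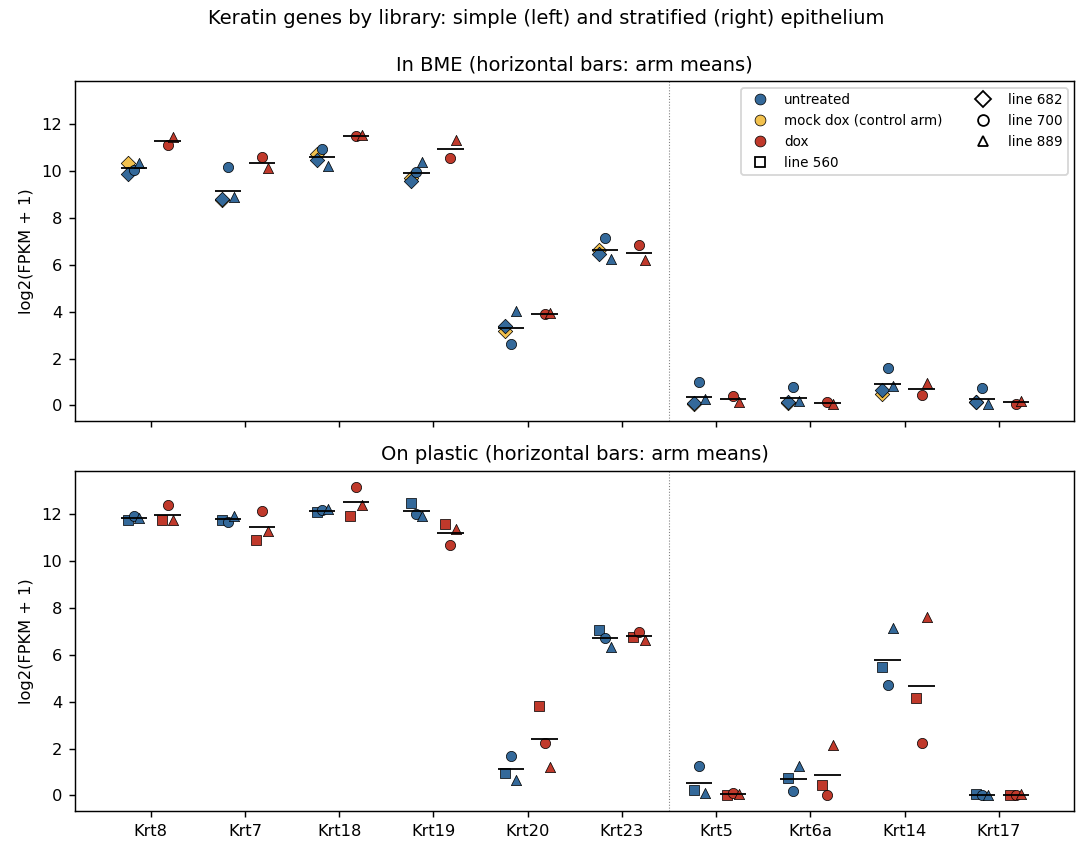
Level of each keratin in each library as log2(FPKM + 1), in BME (top) and on plastic (bottom). Points are single libraries, colours give the treatment, shapes the organoid line, and bars the arm mean. Krt8, Krt18 and Krt19 are the members whose dox libraries all lie above the BME controls, and Krt19 with dox lies below all untreated libraries on plastic.

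Among type II simple keratins, Krt8 is the general partner of the simple type I chains. In BME, Krt8 was at 2206 FPKM (line 700) and 2811 FPKM (line 889) with dox, and at 929, 1058 and 1286 FPKM in the untreated libraries of lines 682, 700 and 889 and 1322 FPKM in the mock library. Both dox libraries were above all 4 controls. The arm means were 2508 ± 428 FPKM (SD, n = 2) and 1149 ± 187 FPKM (SD, n = 4). Within lines, the dox level was 2.085 times the untreated level in line 700 and 2.19 times in line 889, and the mock level was 1.42 times that of its untreated library. The limma change with dox was 1.13 (SE 0.22, adjusted p = 0.959).

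On plastic, Krt8 was at 3512, 5479 and 3476 FPKM with dox in lines 560, 700 and 889, and at 3476, 3871 and 3644 FPKM untreated. The arms overlapped, with line 700 with dox highest. The means were 4156 ± 1146 FPKM (SD, n = 3) and 3664 ± 199 FPKM (SD, n = 3), and the limma change was 0.15 (SE 0.30, adjusted p = 0.942). Without the dox library of line 700 the change on plastic was -0.07.

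Krt7 is the type II keratin of ducts, bladder and some glandular epithelia, and it is low in normal intestine. In BME it was at 1553 and 1126 FPKM with dox in lines 700 and 889, and at 450, 1149 and 478 FPKM untreated in lines 682, 700 and 889 and 434 FPKM in the mock library. The arms overlapped, because untreated line 700 was slightly above dox line 889 and well above the other controls. The dox mean was 1340 ± 302 FPKM (SD, n = 2), the control mean was 628 ± 348 FPKM (SD, n = 4), and the limma change was 1.21 (SE 0.44, adjusted p = 0.959). A fit blocked on line gave 0.83 (adjusted p = 0.671), and counting the mock library with dox gave 0.54.

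On plastic, Krt7 was at 1921, 4469 and 2539 FPKM with dox in lines 560, 700 and 889 and at 3503, 3272 and 3952 FPKM untreated. Dox was lower than untreated in lines 560 and 889 and higher in line 700. Means were 2976 ± 1329 FPKM and 3576 ± 346 FPKM (SD, n = 3 each), with a limma change of -0.35 (SE 0.37, adjusted p = 0.861). This was -0.69 without dox line 700 and -0.08 without dox line 560.

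Krt18 is the type I partner of Krt8. In BME it was at 2869 and 2951 FPKM with dox in lines 700 and 889, and at 1429, 1998 and 1178 FPKM untreated in lines 682, 700 and 889 and 1699 FPKM in the mock library. The dox libraries were above all 4 controls and close to each other, at 2910 ± 58.0 FPKM (SD, n = 2) against 1576 ± 353 FPKM (SD, n = 4). The limma change was 0.91 (SE 0.25, adjusted p = 0.959).

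On plastic, Krt18 was at 3958, 9340 and 5403 FPKM with dox in lines 560, 700 and 889, and at 4359, 4647 and 4785 FPKM untreated. The 3 untreated libraries differed little while the dox libraries ran from below to 2.01-fold above them within a line, and the arms overlapped. Means were 6234 ± 2786 FPKM and 4597 ± 217 FPKM (SD, n = 3 each), with a limma change of 0.35 (SE 0.39, adjusted p = 0.866). This change was 0.01 without dox line 700 and 0.63 without dox line 560.

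Krt19, the smallest keratin and a type I chain of simple and ductal epithelium and of intestinal stem and progenitor cells, differed in direction between the environments. In BME it was at 1511 and 2557 FPKM with dox in lines 700 and 889, and at 773, 992 and 1357 FPKM untreated in lines 682, 700 and 889 and 825 FPKM in the mock library. Both dox libraries were above all 4 controls, at 2034 ± 739 FPKM (SD, n = 2) against 987 ± 264 FPKM (SD, n = 4). Within lines the dox level was 1.52-fold the untreated level in line 700 and 1.88-fold in line 889, and the mock level was 1.07-fold. The limma change was 1.03 (SE 0.32, adjusted p = 0.959), and it was 0.54 with the mock library counted as dox and 0.65 without dox line 889.

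On plastic, Krt19 was at 3061, 1633 and 2645 FPKM with dox in lines 560, 700 and 889, and at 5718, 4188 and 3956 FPKM untreated. All 3 dox libraries were below all 3 untreated ones. The dox level was 0.535, 0.390 and 0.669 times the untreated level of the same line, and means were 2447 ± 735 FPKM and 4621 ± 958 FPKM (SD, n = 3 each). The limma change was -0.95 (SE 0.35, adjusted p = 0.567), so this lower level did not pass the test. Without the dox library of line 700 the change was -0.68.

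Krt20, the type I keratin of mature enterocytes and goblet cells, was low. In BME it was at 13.8 and 14.4 FPKM with dox in lines 700 and 889 and at 9.43, 5.07 and 15.5 FPKM untreated in lines 682, 700 and 889, with 7.97 FPKM in the mock library. Untreated line 889 was the highest of the 6, and the limma change was 0.61 (SE 0.38, adjusted p = 0.959). It was 0.38 without untreated line 700 and 0.32 with the mock library counted as dox. On plastic Krt20 was at 13.2, 3.78 and 1.29 FPKM with dox in lines 560, 700 and 889 and at 0.967, 2.22 and 0.592 FPKM untreated. The dox library was higher in 3 of 3 pairs, as for 18.6% of all genes tested, with the widest gap in line 560, while the arms overlapped across lines. The limma change was 1.32 (SE 0.67, adjusted p = 0.655), and a fit blocked on line gave an adjusted p of 0.358. Without dox line 560 the change was 0.61.

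Krt23, a type I keratin known from pancreatic and colorectal tumor cells, came next after Krt7, Krt8, Krt18 and Krt19 by arm mean among the 10 keratins. In BME it was at 114 and 71.9 FPKM with dox in lines 700 and 889 and at 86.0, 143 and 74.5 FPKM untreated in lines 682, 700 and 889, with 97.2 FPKM in the mock library. On plastic it was at 108, 124 and 98.3 FPKM with dox in lines 560, 700 and 889 and at 135, 105 and 78.8 FPKM untreated. The arms overlapped in both environments, and the limma change in BME was -0.10 (SE 0.31, adjusted p = 0.985), while that on plastic was 0.08 (SE 0.25, adjusted p = 0.966).

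The 4 listed stratified keratins were scarce, with the exception of Krt14 on plastic. Krt14, the type I chain of the basal layer, was at 0.378 and 0.940 FPKM with dox in lines 700 and 889 in BME and at 0.593, 2.02 and 0.758 FPKM untreated in lines 682, 700 and 889, with 0.409 FPKM in the mock library. On plastic it was at 17.0, 3.70 and 198 FPKM with dox in lines 560, 700 and 889 and at 44.5, 25.1 and 139 FPKM untreated. Line 889 was highest in both arms on plastic, dox was lower than untreated in lines 560 and 700 and higher in line 889, and the spread between lines exceeded the dox difference. In BME the limma change was -0.18 (SE 0.36, adjusted p = 0.975). On plastic it was -1.10 (SE 1.36, adjusted p = 0.883), and 0.12 without the dox library of line 700.

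Krt5, the type II partner of Krt14, was between 0.0325 and 0.995 FPKM in BME, which is 1 to 31 rebuilt reads a library, and between 0 and 1.38 FPKM on plastic, which is 0 to 57 reads. Untreated line 700 held the highest level in each environment. On plastic the dox libraries were at 0, 0.0839 and 0.0298 FPKM in lines 560, 700 and 889. The untreated libraries were at 0.161, 1.38 and 0.0906 FPKM. The dox libraries were thus below all untreated ones, at 0 to 3 reads against 4 to 57. That arrangement was found for 7.26% of all genes tested on plastic, and values this low are limited by depth. Krt5 was not tested, because its mean was under 0.5 FPKM in both tables.

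Krt6a and Krt17 are the inducible keratins of wounded epidermis. Krt6a was between 0.0570 and 0.735 FPKM in BME, and on plastic it was at 0.349, 0 and 3.44 FPKM with dox in lines 560, 700 and 889 and at 0.658, 0.138 and 1.36 FPKM untreated. As with Krt14, line 889 was highest in both plastic arms. The limma change of Krt6a on plastic was 0.14 (SE 0.60, adjusted p = 0.973). Krt17 had at most 0.692 FPKM in BME, which is 15 reads, and 0 or 1 read per library on plastic, so no difference was detectable at this depth. The low stratified keratins have near-identical relatives (Krt16 beside Krt14 and Krt17, Krt6b beside Krt6a), so single values are uncertain where reads could be split among them, and this was not tested.

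Compared per length, the order of arm means in BME with dox was Krt18, Krt8, Krt19, Krt7, Krt23, Krt20 and Krt14, and it was the same in the BME controls. In the controls Krt8 and Krt19 were 1149 ± 187 and 987 ± 264 FPKM and so lay within each other's spread. On plastic with dox, Krt18 and Krt8 came ahead of Krt7 and Krt19, and without dox Krt19 and Krt18 were level at 4621 ± 958 and 4597 ± 217 FPKM, ahead of Krt8 and Krt7 at 3664 ± 199 and 3576 ± 346 FPKM. Krt14 at 69.6 ± 61.0 FPKM and Krt23 at 106 ± 27.97 FPKM were not apart in untreated plastic libraries.

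By the call used here (limma with Benjamini-Hochberg adjusted p under 0.05 and a change over 1), 0 of the 7 keratins tested passed in BME, where 0.0231% of 12996 genes passed, and 0 of the 8 tested passed on plastic, where 0.0324% of 12333 genes passed. In fits blocked on line, again 0 keratins passed, with 0% of all genes called in BME and 0.0568% on plastic. At an unadjusted p under 0.05, 4 of the 7 passed in BME (Krt7, Krt8, Krt18 and Krt19, all higher with dox), where 2.62% of all genes were higher at that p, and 1 of the 8 passed on plastic (Krt19, lower), where 3.73% of all genes were lower. Blocked on line, the 4 in BME passed again (4.38% of all genes higher), and on plastic Krt20 passed as higher (7.44% of all genes) beside Krt19 as lower (6.05%). Some settings kept fewer. In BME the count was 3 without the mock library, when Krt7 was lost, 1 (Krt8) with the mock library counted as dox, and 2 (Krt8 and Krt18) without dox line 889. The 13 settings in BME count the fit without the mock library both as a setting and as a left-out library. Over them an unadjusted p under 0.05 held for Krt8 in 13, Krt18 in 12, Krt19 in 11 and Krt7 in 6. On plastic it held for Krt19 in 6 of 11 settings, and it was lost without a filter and without dox line 700, dox line 889, untreated line 560 or untreated line 700. Without dox line 889 it was Krt14 (lower) and Krt20 (higher) that passed on plastic. Krt8, Krt18 and Krt19 were the 3 tested keratins with both dox libraries above every control in BME, an arrangement found for 6.33% of all genes tested. Krt19 was the 1 tested keratin with every dox library below every untreated library on plastic, an arrangement found for 7.26%. Krt7, Krt8, Krt18 and Krt19 were higher with dox in both BME pairs, as were 27.2% of all genes, and Krt19 was lower in 3 of 3 plastic pairs, as were 18.7%. The median change of the tested keratins was 0.91 in BME (5 higher, 2 lower) where that of all genes was -0.01, and 0.11 on plastic (5 higher, 3 lower) where that of all genes was 0.01. The plastic median turned to -0.082 with a pseudocount of 0.1, -0.064 without dox line 889, -0.018 without untreated line 700 and -0.0016 without dox line 700.

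**Figure D2:**
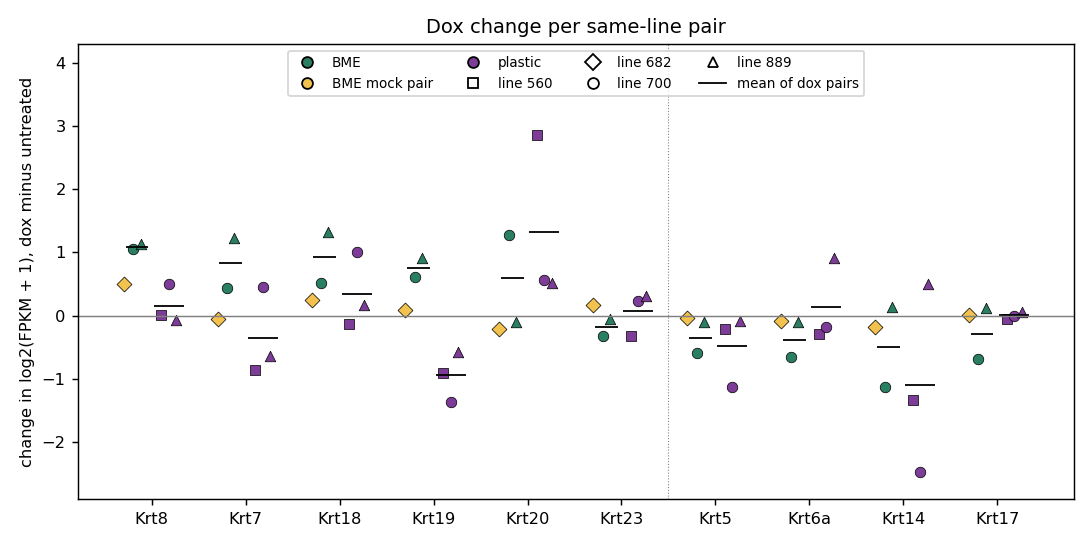
Change in log2(FPKM + 1) of each keratin, dox minus untreated, per same-line pair in BME (green), for the mock pair (yellow) and on plastic (purple). Bars are means of the dox pairs. For Krt8 and Krt19 both BME pairs lie above all plastic pairs, and Krt19 is above 0 in BME and below 0 on plastic in every dox pair.

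The dox change on plastic was compared with that in BME for each keratin. Induction also differed, since the limma change of Smad4 was 1.36 in BME and 3.42 on plastic. Line 682 was in BME alone and line 560 on plastic alone. Environment, SMAD4 level and line cannot be told apart in these differences. Krt19 had pair differences of 0.61 and 0.91 in the BME pairs of lines 700 and 889 and of -0.90, -1.36 and -0.58 in the plastic pairs of lines 560, 700 and 889, on the log2(FPKM + 1) scale. The signs were opposite in every pair, also within the 2 lines grown in both environments, and 2.25% of all genes tested shared this arrangement. The difference of the change, plastic minus BME, was -1.98 (SE 0.47, 95% interval -3.005 to -0.95) by limma, with an adjusted p = 0.9999 over 11977 genes. Blocked on line, it was -1.71 (adjusted p = 0.765).

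For Krt8 the pair differences were 1.06 and 1.13 in BME and 0.01, 0.50 and -0.07 on plastic in the same order of lines. Both BME pairs were above every plastic pair, as for 9.61% of all genes tested, and the mock pair was at 0.51. The difference was -0.98 (SE 0.34, interval -1.74 to -0.23, adjusted p = 0.9999 by limma). For Krt7 the pair differences were 0.43 and 1.23 in BME and -0.87, 0.45 and -0.64 on plastic, so line 700 was higher with dox in both environments while line 889 was higher in BME and lower on plastic. The Krt7 difference was -1.56 (SE 0.59, interval -2.85 to -0.26, adjusted p = 0.9999). It was -0.93 in lines 700 and 889 alone and -0.89 with the mock library counted as dox, and neither kept an unadjusted p under 0.05.

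Krt18, the chain that pairs with Krt8, had pair differences of 0.52 and 1.32 in BME and -0.14, 1.01 and 0.18 on plastic. These overlapped, line 700 was higher on plastic and line 889 higher in BME, and the difference was -0.56 with an interval of -1.55 to 0.42. The Krt18 difference was -0.28 without dox line 560 and -0.90 without dox line 700 on plastic, -0.33 in lines 700 and 889 alone and -0.35 with the mock library counted as dox. Differences for the remaining tested keratins had wide intervals, from -1.17 to 2.57 for Krt20, from -0.73 to 1.07 for Krt23 and from -4.44 to 2.60 for Krt14. Of the 7 keratins tested for a difference, 0 passed the call, as did 0% of all genes, and 3 (Krt7, Krt8 and Krt19, all lower on plastic) had an unadjusted p under 0.05 where 1.23% of all genes were lower at that p. Blocked on line, the 3 passed again, with 2.45% of all genes lower. In lines 700 and 889 alone, unblocked, and with the mock library counted as dox, 1 (Krt19) passed. Over 21 settings Krt19 passed in 21, Krt8 in 17 and Krt7 in 16, and Krt8 was also lost without a filter and without dox line 889 in BME. Krt14, Krt18 and Krt23 passed in 1 of the 21 settings each. The 21 count the fit without the mock library both as a setting and as a left-out library. The median difference was -0.92 against 0.01 for all genes.

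**Figure D3:**
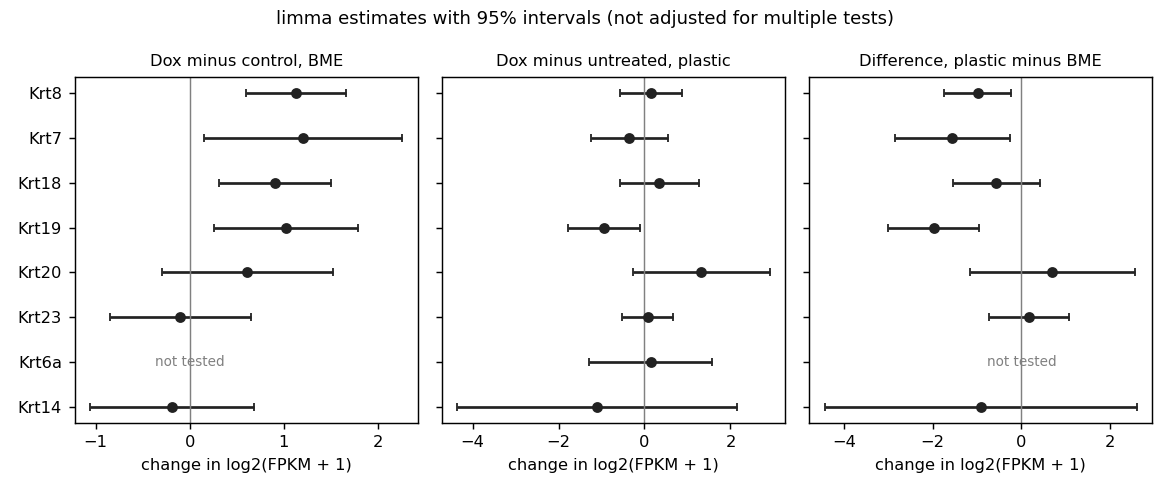
limma estimates of the dox change in BME (left), on plastic (middle) and of their difference, plastic minus BME (right), with 95% intervals not adjusted for multiple tests, in log2(FPKM + 1). Krt8, Krt7, Krt18 and Krt19 have intervals above 0 in BME, the interval of Krt19 lies below 0 on plastic, and those of Krt7, Krt8 and Krt19 lie below 0 for the difference.

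The make-up of the keratin pool was then compared. Krt19 made up 24.0%, 7.70% and 18.3% of keratin FPKM with dox in lines 560, 700 and 889 on plastic and 32.7%, 25.8% and 23.6% untreated. The share was lower with dox in each line, but the arms overlapped, since dox line 560 was just above untreated line 889. The ratio of Krt19 to Krt18 was 0.774, 0.175 and 0.490 with dox and 1.31, 0.901 and 0.827 untreated, so that all dox libraries were below all untreated ones. In BME the same ratio was 0.527 and 0.867 with dox and 0.486 to 1.15 in controls, and the arms overlapped. The ratio of Krt7 to Krt8 on plastic was 0.547, 0.816 and 0.730 with dox and 1.01, 0.845 and 1.09 untreated, again without overlap. In BME that ratio was 0.400 to 0.704 with dox and 0.328 to 1.09 in controls, and the arms overlapped. The ratio of Krt8 to Krt18 overlapped between arms in both environments, at 0.769 to 0.953 with dox and 0.530 to 1.09 in BME controls, and at 0.587 to 0.887 with dox and 0.762 to 0.833 untreated on plastic. These ratios were described and not tested.

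**Figure D4:**
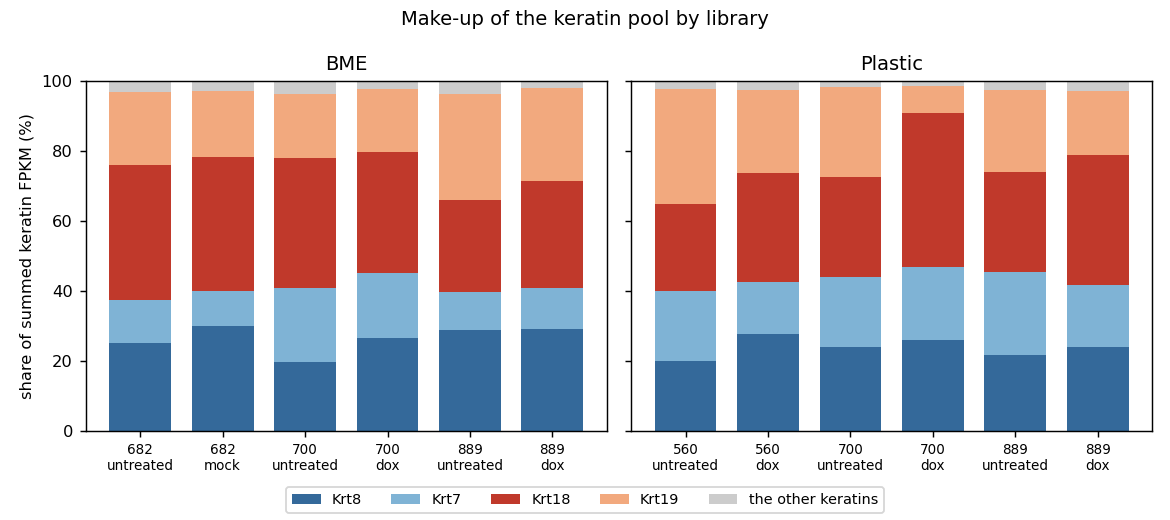
Share of summed keratin FPKM (%) held by Krt8, Krt7, Krt18, Krt19 and the other keratins in each library, in BME (left) and on plastic (right). Krt19 holds 7.70% in line 700 with dox on plastic and 25.8% without, and the 4 named genes hold at least 96.2% in every library.

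Across the 12 libraries, with each table centred on its own mean, Krt8 and Krt18 had a Pearson r of 0.79, Krt7 and Krt18 0.77 and Krt7 and Krt8 0.62, while Krt18 and Krt19 had -0.01 and Krt14 and Krt20 -0.61. The libraries share lines and treatment arms, so these values describe them only. Among 11977 genes, those named as most like each keratin over these libraries were Ppa1 (0.90) and Crat (0.88) for Krt8, Msln (0.93) and Map6 (0.93) for Krt7, Prdx1 (0.92) for Krt18, and Tnni2 (0.91) and Smpd5 (0.90) for Krt19. For Krt20 they were Slc22a21 (0.91) and Nectin3 (0.90), for Krt23 Vegfb (0.90) and Car8 (0.89), and for Krt14 Cav1 (0.92) and Nip7 (0.91).

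Of the 45 other keratin genes, 43 were on the list of other keratins, of which 6 were tested in each environment and 0 passed the call. The 2 not on that list were Krt88, with a change of -0.04 (SE 0.45, adjusted p = 0.995) in BME and a mean of 0.302 FPKM on plastic, and Krt90, with means of 0.0616 and 0.141 FPKM. Of the 6 listed ones tested in BME, 5 were higher with dox and 1 lower, where 48.96% of all genes were higher. On plastic 2 were higher and 4 lower, where 51.06% of all genes were higher. All 6 had a lower change on plastic than in BME, while 51.42% of all genes had a higher one. At an unadjusted p under 0.05, 1 of the 6 was lower for the difference (Krt87 at -1.26, adjusted p = 0.9999 by limma), as were 1.23% of all genes. Krt87 was low, at means of 2.15 FPKM in BME and 0.748 FPKM on plastic. Krt4, the type II keratin of mucosal squamous epithelium, was at 38.6 and 100.4 FPKM with dox in lines 700 and 889 in BME and at 14.6, 37.9 and 57.8 FPKM untreated in lines 682, 700 and 889, with 14.3 FPKM in the mock library. Line 889 was above line 700 in both arms, and the limma change there was 1.22 (SE 0.68, adjusted p = 0.959). On plastic Krt4 was at 81.9 to 135.9 FPKM with dox and 90.5 to 193 FPKM untreated, and its change was -0.30 (adjusted p = 0.869). Krt79, a keratin of skin appendages, was at 2.73 and 3.42 FPKM with dox and 0.392 to 1.34 FPKM in BME controls, without overlap, as for 6.33% of all genes, and its change was 1.18 (SE 0.26, adjusted p = 0.959). On plastic Krt79 was at 8.13, 0.233 and 1.33 FPKM with dox in lines 560, 700 and 889 and at 1.82, 0.702 and 0.283 FPKM untreated, so line 700 was lower with dox and the other two lines higher, with a change of 0.70 (SE 0.74, adjusted p = 0.860). Krt80 was at 4.00 ± 1.69 FPKM with dox (SD, n = 2) and 3.01 ± 1.61 FPKM in controls (SD, n = 4) in BME, and at 38.1 ± 15.0 FPKM with dox and 51.2 ± 23.7 FPKM untreated on plastic (SD, n = 3 each). Its change was 0.38 (adjusted p = 0.963) in BME, and on plastic it was -0.38 (adjusted p = 0.877).

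Genes that attach or regulate keratin filaments were read from lists, with 0 calls in any of them in BME, on plastic or for the difference. Of 14 desmosome and plakin genes tested in BME, 13 were higher with dox, as were 48.96% of all genes, and 2 (Jup and Pkp3) were higher at an unadjusted p under 0.05, as were 2.62% of all genes. On plastic 9 of 13 were higher, and for the difference 2 of 13 (Pkp3 at -0.51 and Evpl at -0.68) were lower at that p, as were 1.23% of all genes. Pkp3, a desmosomal plaque protein, and Evpl, a plakin of the cornified envelope, are named here after their values were seen. Jup, the desmosomal plakoglobin, was at 151.7 ± 8.22 FPKM with dox and 107 ± 14.9 FPKM in BME controls (change 0.51, adjusted p = 0.959). Perp, a desmosomal membrane protein, had changes of 0.39 in BME (adjusted p = 0.959) and 1.09 on plastic (adjusted p = 0.750).

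Of 7 hemidesmosome genes tested, 7 were higher with dox in BME and 6 on plastic, where 48.96% and 51.06% of all genes were higher. At an unadjusted p under 0.05, 3 were higher in BME (Lama3, Lamb3 and Cd151; 2.62% of all genes) and 1 on plastic (Lama3; 4.56% of all genes). Lama3, a chain of the laminin that hemidesmosomes bind, was at 14.7 ± 5.07 against 6.16 ± 4.39 FPKM in BME (change 1.26, adjusted p = 0.959) and at 61.1 ± 15.3 against 33.0 ± 13.95 FPKM on plastic (change 0.93, adjusted p = 0.583). Lamb3, its partner chain, had changes of 0.67 in BME (adjusted p = 0.959) and 0.69 on plastic (adjusted p = 0.606), both above 0, though neither passed. Cd151, a tetraspanin of hemidesmosomes, had changes of 0.39 in BME and 0.23 on plastic, and Itgb4, the integrin that anchors keratins, 0.34 and -0.22.

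Among 8 other intermediate filament genes tested in BME, 5 were higher and 3 lower, and on plastic 2 of 7 were higher and 5 lower. Of all genes, 48.96% were higher in BME and 51.06% on plastic. At an unadjusted p under 0.05, 2 of the 7 were lower on plastic (Lmnb1 and Nes), as were 3.73% of all genes. Lmnb1, the nuclear lamin B1, had changes of -0.71 in BME (adjusted p = 0.959) and -0.95 on plastic (adjusted p = 0.420), while Lmna had 0.35 and -0.11. Nes, a filament protein of progenitor cells, had a mean of 3.86 FPKM with dox and 9.66 FPKM untreated on plastic (change -1.26, adjusted p = 0.589). Of 10 keratin partners, 7 were higher in BME and 4 on plastic, with Krtcap2 at -0.21 and -0.03 and the keratin chaperone Dnajb6 at 0.08 and 0.19. Of 9 regulators of squamous and basal cells, 4 were higher in BME and 5 on plastic, with Klf4 at 0.40 and 0.01 and Klf5 at -0.57 and 0.11. Zfp750, named here after its values were seen, had limma changes of -0.76 in BME (adjusted p = 0.959) and -0.97 on plastic (adjusted p = 0.352). It was the 1 regulator lower at an unadjusted p under 0.05 on plastic, where 3.73% of all genes were lower at that p. In BME it was lower at that p too.

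Markers of other epithelia were set beside the keratins. The 6 basal squamous markers, of which 3 (Itgb4, Lamb3 and Dsg3) had a mean of at least 0.5 FPKM, summed to 132.7 to 137.1 FPKM with dox and 80.2 to 131.4 FPKM in controls in BME, where the dox libraries were just above all controls, and to 182.7 to 375.9 FPKM with dox and 171 to 263 FPKM untreated on plastic. Itgb4 and Lamb3, which the hemidesmosome list also holds, made up most of this sum, at 85.0 and 47.8 FPKM with dox and 67.9 and 30.0 FPKM in controls in BME, while Trp63, the defining regulator of basal squamous cells, was at 0.0149 FPKM with dox and 0.0409 FPKM in controls, and Dsc3 was listed at 0 in the dox libraries. Suprabasal squamous markers summed to 42.5 to 109.8 FPKM with dox and 17.5 to 62.5 FPKM in BME controls, and to 115.7 to 157.4 FPKM with dox and 113 to 233.5 FPKM untreated on plastic. Krt4, itself a keratin, made up most of this sum, with 38.6 of 42.5 FPKM and 100.4 of 109.8 FPKM in the dox libraries in BME. Lor, a cornified envelope protein on that list, was at 4.88, 9.37 and 7.90 FPKM with dox in lines 560, 700 and 889 on plastic and at 22.5, 13.7 and 28.6 FPKM untreated. All its dox libraries were below the untreated ones, as for 7.26% of all genes, with a limma change of -1.41 (SE 0.34, adjusted p = 0.358) on plastic and 0.40 in BME. Of the intestinal epithelium markers, 8 of 8 tested were higher with dox in BME (median change 0.28), as were 5 of the 7 keratins tested, and on plastic 3 of 7 were higher (median change -0.19), with 0 at an unadjusted p under 0.05 in either. Epcam had changes of 0.45 in BME and 0.97 on plastic, Lgals4 0.11 and -0.55, and Cldn3 0.34 and -0.19, and none passed the test. The part of these markers or of cell makeup in the keratin values was not tested.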

How the data were processed

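Per the study's methods and the submitters' notes, reads were quantified with kallisto, compared with DESeq2 and assigned to mm9; versions and annotation are not given in the sources used here. The authors deposited FPKM values in 1 table per environment, each normalized on its own 6 libraries. Their deposited comparison tables hold a mean normalized count (a signal over libraries), a fold change with its SE, a Wald statistic and p-values; only the mean was read here, to rebuild depth from the FPKM steps, where 84.9% to 88.1% of low values were whole reads (within 0.05). The median ratio of a library to the gene-wise geometric mean was the same in all 6 libraries of a table (1.007), as scaling by size factors of the median-of-ratios kind gives. Such scaling adjusts for depth and, where most genes hold their level, for RNA composition.

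Genes with a mean of at least 0.5 FPKM (12996 in BME, 12333 on plastic, 11977 in both) were tested as log2(FPKM + 1) with limma 3.58.1 in R 4.3.3 (eBayes with trend, two-sided, Benjamini-Hochberg over all genes tested), and the difference of the dox changes was tested in 1 model over all 12 libraries. A change on this scale understates that of low genes. Calls required an adjusted p under 0.05 together with a change beyond 1 in size. The dox and untreated libraries of a line number were checked for pairing, and the deviations of each pair from its arm means correlated at 0.247 to 0.70, so the line was also fitted as a block. The script was tested on simulated data. The keratins and lists were chosen with earlier results of these data known. Named genes were the 10 keratins, list genes with an unadjusted p under 0.05 and a change over 1, the 2 highest per list, and the 2 genes most correlated with each keratin. Some items that this rule names are not reported here.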

Additional observations from a re-analysis of the deposited data

Results flagged for a closer look

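Untreated line 700 stood apart from the other 3 control libraries in BME for Krt7, at 1149 FPKM against 434 to 478 FPKM, a gap of 0.938 of the range of the group. Of 7 values examined this way 1 stood apart, where chance gives 0.35. Its dox library was the highest of the table for Krt7, and line 700 was not the highest of the untreated lines for Krt7 on plastic.

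The dox change of Krt19 differed between environments by -1.98 (plastic minus BME), with every BME pair above 0 and every plastic pair below 0. The test of this difference by limma gave an adjusted p = 0.9999, so it did not pass.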

How the results depend on the processing

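No keratin passed the adjusted threshold under any of 13 settings in BME, 11 on plastic or 21 for the difference. The 13 and the 21 each count the fit without the mock library both as a setting and as a left-out library. The Krt19 difference ran from -2.35 to -1.48 (adjusted p 0.328 to 1), Krt8 in BME from 0.90 to 1.31 and Krt19 on plastic from -1.13 to -0.68. In BME the count of all genes called, 3, was 1 with a pseudocount of 0.1 and 0 with a mean of at least 1 FPKM, with the replicate block, without the mock library or with it counted as dox, and leaving out 1 library gave 0 to 37, the highest without dox line 700. With the mock library counted as dox the keratin median in BME was 0.54. On plastic the count, 4, was 10 with a pseudocount of 0.1, 0 without a filter, 11 after rescaling and 7 with the replicate block, and leaving out 1 library gave 0 to 55, the highest without dox line 700. For the difference the count, 0, was 5 without a filter, and the keratin median of -0.92 was -0.61 with the replicate block and -0.49 in lines 700 and 889 alone, blocked or not. Leaving out 1 library moved that median over -1.16 to -0.53, the latter without untreated line 889 on plastic. Leaving out 1 library turned the sign of these changes. In BME, Krt14 ran from -0.43 to 0.062 (0.062 without dox line 700, 0.049 without untreated line 700) and Krt23 from -0.43 to 0.24 (0.087 without untreated line 700, 0.24 without dox line 889). On plastic, Krt6a ran from -0.50 (without dox line 889) to 0.57, Krt14 from -2.58 to 0.12 (without dox line 700), Krt8 from -0.067 (without dox line 700) to 0.26 and Krt23 from -0.12 (without untreated line 889) to 0.26, and Krt6a was -0.24 with a pseudocount of 0.1. For the difference, Krt14 ran from -2.39 to 0.31 (without dox line 700 on plastic) and Krt23 from -0.16 (without dox line 889 in BME) to 0.51, and Krt20 was -0.044 in lines 700 and 889 alone, blocked or not. The block changed no other call. The cause was not tested. Keratins at a few reads per library are limited by depth.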
